A study of Mus musculus with 6 samples.

Results

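The host RNAs described here are transcripts that carry small nucleolar RNAs (snoRNAs) or microRNAs within their genes. They were chosen by gene name: every gene named Snhg with a number, every gene named Mir with a number and ending in hg, and Gas5. The rule found 26 genes of the 54532 in the table, 16 hosts of snoRNAs and 10 hosts of microRNAs. Of these, 17 had enough counts to be tested, 13 hosts of snoRNAs and 4 of microRNAs, among 15543 genes tested in all. The 3 types of wild-type mouse T cell were compared, each untreated per the labels and each represented by 2 RNA-seq libraries. Naive T cells are mature cells before their encounter with antigen. Th17 cells are inflammatory helper cells named for the cytokine interleukin-17, and Treg cells are suppressive cells that depend on the transcription factor Foxp3. The labels give the thymus as the tissue of all 6 libraries, the series title is about ageing liver, and no source used here gives strain, age, sex or any culture conditions.

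snoRNAs are short nucleolar RNAs that guide chemical modification of ribosomal RNA, box C/D members guiding methylation and box H/ACA members guiding pseudouridylation. In mammals most are cut from introns, and when the host is non-coding its spliced RNA is often a by-product that nonsense-mediated decay removes. Many such hosts start with a run of pyrimidines, as ribosomal protein genes do, and their spliced RNA then accumulates when translation slows. microRNA hosts are the long primary transcripts from which Drosha and Dicer cut hairpins into short mature microRNAs, which then repress messenger RNAs through their seed bases. What was measured here is the host RNA, from which the amount of the mature small RNA cannot be read.

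The mature microRNAs inside the tested hosts show what the 4 microRNA hosts can supply. RefSeq (GRCm38.p6) lists 17 of them, 11 in Mir17hg and 2 each in Mir155hg, Mir22hg and Mir142hg, with 15 distinct seeds. The arms shown were picked because each host's difference between types is described below, and the 6 arms of Mir17hg because some share a seed. Capitals mark the seed, bases 2 to 8 from the 5′ end.
miR-155-5p (Mir155hg, chr16:84714143-84714165, plus strand): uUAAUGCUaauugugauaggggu
miR-22-3p (Mir22hg, chr11:75463772-75463793, plus strand): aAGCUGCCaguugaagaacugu
miR-142a-5p (Mir142hg, chr11:87756867-87756887, plus strand): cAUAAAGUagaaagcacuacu
miR-142a-3p (Mir142hg, chr11:87756903-87756925, plus strand): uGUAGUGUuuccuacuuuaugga
miR-17-5p (Mir17hg, chr14:115043684-115043706, plus strand): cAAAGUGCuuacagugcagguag
miR-20a-5p (Mir17hg, chr14:115044183-115044205, plus strand): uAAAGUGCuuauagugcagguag
miR-18a-5p (Mir17hg, chr14:115043867-115043889, plus strand): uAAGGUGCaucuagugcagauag
miR-19a-3p (Mir17hg, chr14:115044048-115044070, plus strand): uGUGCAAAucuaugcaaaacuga
miR-19b-3p (Mir17hg, chr14:115044358-115044380, plus strand): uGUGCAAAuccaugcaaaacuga
miR-92a-3p (Mir17hg, chr14:115044476-115044496, plus strand): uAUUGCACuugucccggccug

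miR-17-5p and miR-20a-5p share the seed AAAGUGC, and miR-19a-3p and miR-19b-3p share GUGCAAA. No other seed was shared among the 17 arms. miR-155 is induced by activation in mouse T and B cells, the miR-17 to miR-92a cluster promotes lymphocyte proliferation and survival in mice, and miR-142 is made almost only in blood cells.

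A few snoRNAs show the kinds of RNA that the snoRNA hosts carry. They were chosen from hosts whose level differed between types (Snhg5, Snhg8 and Snhg12) and from Gas5, which had the highest counts of all members. Sequences are GENCODE release 21 transcripts on GRCm38, written as DNA. Capitals mark the C box TGATGA and the D box CTGA of box C/D snoRNAs, or the ACA that lies 3 bases before the end of box H/ACA snoRNAs.
Snord47 (Gas5, chr1:161038082-161038158, plus strand): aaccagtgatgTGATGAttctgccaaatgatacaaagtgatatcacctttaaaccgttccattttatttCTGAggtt
Snord50a (Snhg5, chr9:88521529-88521600, minus strand): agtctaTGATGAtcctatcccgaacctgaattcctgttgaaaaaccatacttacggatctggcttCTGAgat
Snord50b (Snhg5, chr9:88521797-88521868, minus strand): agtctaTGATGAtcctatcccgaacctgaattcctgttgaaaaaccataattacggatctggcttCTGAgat
Snord99 (Snhg12, chr4:132310691-132310764, plus strand): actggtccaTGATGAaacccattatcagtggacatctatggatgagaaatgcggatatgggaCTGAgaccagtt
Snora61 (Snhg12, chr4:132310240-132310369, plus strand): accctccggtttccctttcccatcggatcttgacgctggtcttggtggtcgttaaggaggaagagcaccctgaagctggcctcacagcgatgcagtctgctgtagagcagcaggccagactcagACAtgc
Snora24 (Snhg8, chr3:123507937-123508066, minus strand): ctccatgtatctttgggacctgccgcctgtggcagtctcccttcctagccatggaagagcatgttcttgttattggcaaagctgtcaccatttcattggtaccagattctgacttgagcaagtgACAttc

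Snord50a and Snord50b differ at 1 of 72 bases, written C50A with positions counted from the 5′ end of Snord50a. Of 33 snoRNA transcripts of the tested hosts, leaving out Snhg4 and Snhg14, 18 (54.5%) held TGATGA together with CTGA in the last 20 bases, and 8 (24.2%) held the ACA, 1 of them having both. Among all 1507 snoRNA transcripts of the release the shares were 23.3% and 18.3%. The 33 count Snord80 and Snora16a more than once, because each has more than 1 entry. These letters were read on the strand of the snoRNA and describe the sequence only.

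The table and the annotation place 274 small RNA genes inside the 26 hosts, 247 snoRNAs, 25 microRNAs and 2 small Cajal body RNAs. Snhg14, which spans 667.836 kb on chromosome 7 and is an imprinted host of snoRNA arrays, holds 208 of them. Among the other 16 tested hosts there were 50, with 10 in Gas5, 8 in Snhg1, 5 in Snhg12 and 6 microRNAs in Mir17hg. Entries were counted, and Snord80 in Gas5 and Snora16a in Snhg12 are each entered more than once over nearly the same bases. Of these 50, 5 lay in an intron of every host transcript that spans them, 21 overlapped an exon, 20 were exonic only in transcripts that retain an intron, and the 4 of Snhg4 could not be placed because its identifier is not in the release. Reads over a retained intron may therefore count for the host, but no source used here says how reads shared by overlapping genes were counted. The small RNA genes themselves were nearly uncounted. On the host's strand, the tested hosts had counts only for Snord87 inside Snhg6 (18 over the 6 libraries) and Scarna13 inside Snhg10 (11). In the other hosts Snora78 inside Snhg9 had 49 and Mir133a-1 inside Mir133a-1hg had 5. Snora78 alone of them had enough counts to be tested, with 18 and 18 in naive, 8 and 2 in Th17 and 2 and 1 in Treg libraries. It was lower in Th17 and Treg than in naive cells (adjusted p = 0.0225 and 0.00348, edgeR's quasi-likelihood test). Snora78 also lies within the span of Rps2 on the opposite strand, so its few reads are uncertain. All 4 were among the 222 intronic small RNA genes, and none placed over an exon had any count. A count of 0 for these genes thus cannot be read as absence of the small RNA.

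**Figure D1:**
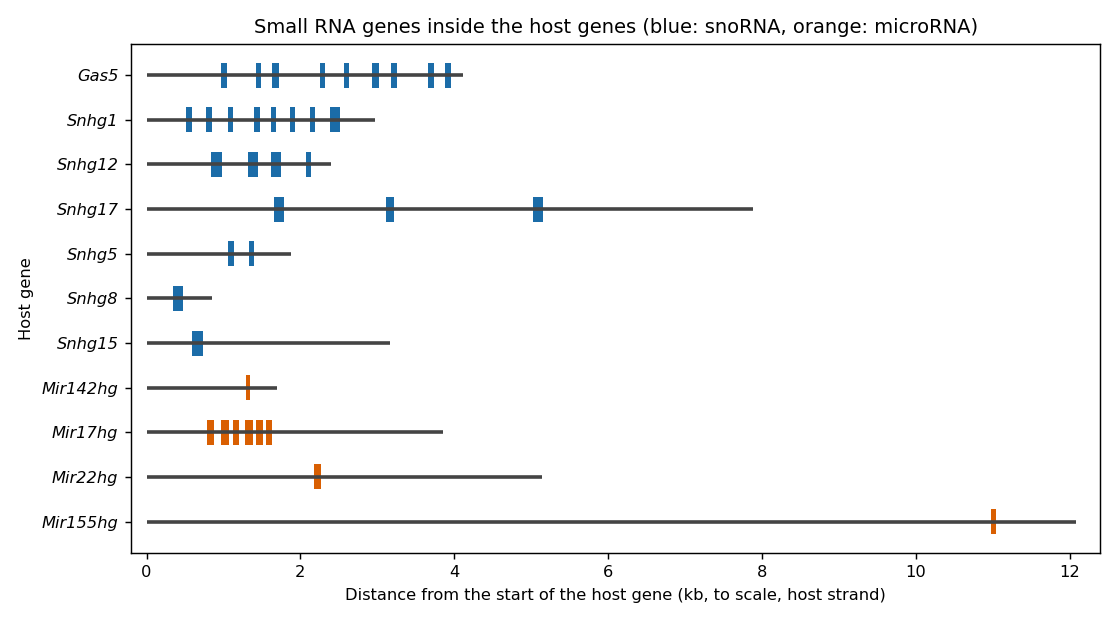
Position of snoRNA genes (blue) and microRNA genes (orange) along 11 of the tested host genes, drawn from the start of each host on its own strand, in kb and to scale. Gas5 holds 10 snoRNA entries within 4.118 kb, with Snord80 entered more than once over nearly the same bases. Mir17hg, of 3.849 kb, holds 6 microRNA genes that begin 792 to 1548 bases from its start. Mir155hg holds 1 microRNA gene close to its end.

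Start sites were read for the pyrimidine run of such genes. The 4 shown had the longest runs among the called snoRNA hosts whose start was read. Snhg20 and Snhg14, also called, had longest runs of 4 and 2 bases. The RefSeq start of Snhg14 lies outside its gene in the table and is among the starts counted below. Each window holds 15 bases before the RefSeq start and 15 from it on, with the longest run of C and T on the transcript's strand in capitals.
Snhg1 start (chr19:8723472-8723501, plus strand): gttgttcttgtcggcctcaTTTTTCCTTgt
Snhg5 start (chr9:88522883-88522912, minus strand): gagctgcggtgaaccgggctcgTTCTTTTa
Snhg8 start (chr3:123508322-123508351, minus strand): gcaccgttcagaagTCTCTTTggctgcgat
Snhg12 start (chr4:132308663-132308692, plus strand): ggccgttctcagTCCTTTCTCgcttcatcc

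Runs of 9 bases were found in Snhg1 and Snhg12, and runs of 7 in Snhg5 and Snhg8. A run was taken wherever it lay in the window. Those of Snhg8 and Snhg12 spanned the RefSeq start, and those of Snhg1 and Snhg5 lay after it. Over 13 RefSeq starts of 11 tested snoRNA hosts, 3 (23.1%) held a run of at least 8 bases, as did 12.0% of 32851 RefSeq starts of mouse genes. The median longest run was 6 bases in the hosts and 4 in all. RefSeq starts are not mapped starts in these cells, so a run is a description of the letters in the window.

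The libraries carried 16458939 to 17901331 counts each, and the 26 hosts took 0.0599% to 0.0819% of them. Lineage genes matched the labels: Foxp3 reached 1009 CPM in both Treg libraries, 13.5 and 15.1 CPM in naive and at most 0.91 CPM in Th17 libraries. CPM are counts set to a common library size, here after scaling by the trimmed mean of M values (TMM). Il17a stood at 330 and 500.4 CPM in Th17 libraries and had 0 counts in the 4 others, and Il17f averaged 2205 CPM in Th17 libraries. Il2ra, an interleukin-2 receptor chain, averaged 14.8, 1715 and 2547 CPM in naive, Th17 and Treg libraries, and Ccr7, a homing receptor of naive cells, 488, 313 and 380.5 CPM. Of the fixed marker lists, those of naive T, Th17 and Treg cells summed highest in their own type (4907 to 5136, 2926 to 3149 and 4856 to 5063 CPM). Markers of other cell types were present at low levels. The 8 B cell markers were all lower in Th17 and in Treg than in naive libraries. They summed to 56.6 to 66.6 CPM in naive, 5.94 to 7.31 in Th17 and 4.91 to 6.81 in Treg libraries. The 7 NK markers summed to 46.5 to 71.9, 9.26 to 10.6 and 18.7 to 19.8 CPM. Of 6 tested, 5 were lower and 1 higher in Th17, and 5 lower and 0 higher in Treg than in naive libraries. The 8 myeloid and dendritic markers summed to 80.4 to 104.9, 70.2 to 73.8 and 59.6 to 69.4 CPM, with 5 lower in Th17 and 7 lower in Treg than in naive libraries. The 7 erythroid and platelet markers summed to at most 23.7 CPM in any library, and of 3 tested 2 were higher in Th17 than in naive libraries. That rise lies in Th17 library 1 alone, at 23.7 CPM for the list, whereas Th17 library 5 was at 0.05 CPM and the naive libraries at 1.94 and 2.14 CPM. The 6 T cell markers summed to 2169 to 2628, 802 to 1087 and 856 to 935 CPM, with 5 lower in Th17 and 5 lower and 1 higher in Treg than in naive libraries. The 6 thymic epithelium markers summed to 2.00 to 9.06, 0.05 and 68.8 to 81.7 CPM, with Epcam giving nearly all of the Treg sum and Foxn1 at 0 in every library. These lists move with the types, and their part in the host RNA differences was not tested. In bulk RNA, fewer cells of a type and less RNA per cell cannot be told apart. The labels name no separate animals, donors or cultures behind the libraries of a type. A p-value here thus sets a difference between types only against the spread of these libraries, estimated over the 3 types together, and that spread may be technical.

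The naive libraries, numbered 1 and 5 in the table as in every type, differed in their snoRNA hosts. The 26 hosts together summed to 647 CPM in naive library 1 and 938 CPM in naive library 5, against 728 and 733 CPM in Th17 and 579 and 634 CPM in Treg libraries. Snhg8 was 2.15-fold, Snhg12 1.62-fold, Gas5 1.53-fold and Snhg6 1.50-fold higher in naive library 5 than in naive library 1. Of 11 snoRNA hosts with at least 10 counts in both naive libraries, 8 were higher in library 5, with a median log2 ratio of 0.50, beside -0.02 over 12829 genes, of which 47.8% were higher in library 5. Snhg17, Snhg4 and Snhg14 were the 3 that were lower there. In Th17 libraries 7 of 12 were higher in library 5 (median 0.06), and in Treg libraries 10 of 12 (median 0.09), where 51.2% of all genes were. A count tilted to library 5 was thus also seen in Treg cells, with a smaller median. Where leaving out naive library 5 ended a call or moved a called fold by over 1.5 times, the value without it is given with the gene.

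**Figure D2:**
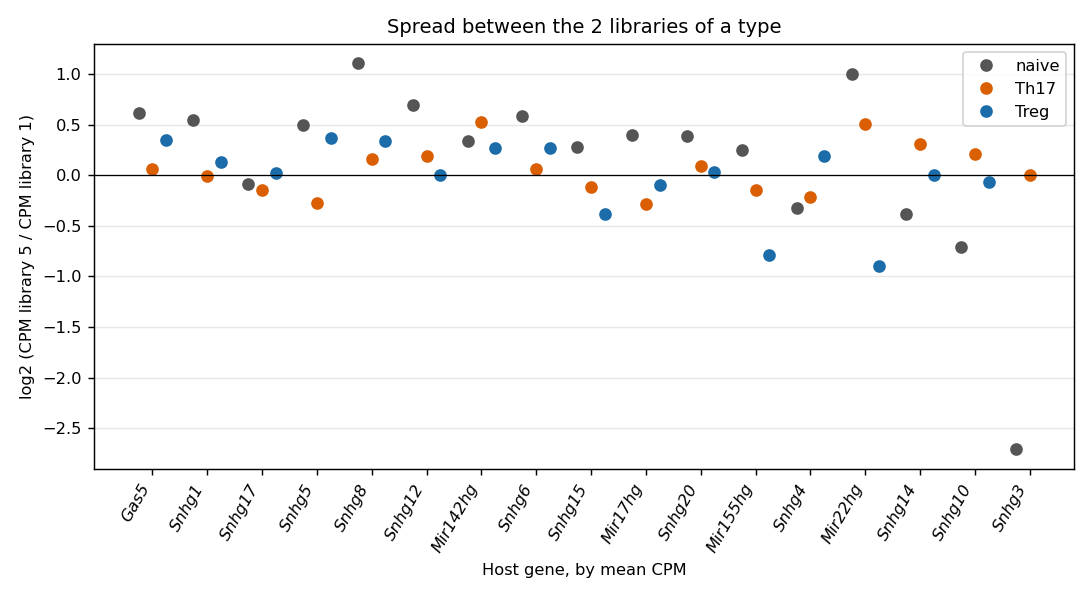
Log2 ratio of CPM in library 5 to CPM in library 1 for each tested host, within naive (grey), Th17 (orange) and Treg (blue) cells; a value of 0 means equal levels, and Snhg3 has no Treg point because Treg library 5 had 0 counts. Grey points of most snoRNA hosts lie above 0, with Snhg8 highest at 1.11, whereas those of Snhg17, Snhg4, Snhg14, Snhg10 and Snhg3 lie below 0.

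Levels of different hosts were compared per kilobase of the gene length in the table (RPKM, CPM per kilobase). Mir142hg, listed at only 269 bases, had the highest mean level per kilobase, 104 ± 17.3 RPKM in naive, 179.8 ± 45.7 in Th17 and 139.7 ± 18.5 in Treg cells (SD, n = 2). Snhg8 came next in naive cells at 95.7 ± 49.5 RPKM, followed by Gas5 at 69.8 ± 20.8 RPKM, and Gas5 came next in Th17 and Treg cells at 57.3 ± 1.66 and 51.1 ± 8.63 RPKM. The naive levels of Mir142hg and Snhg8 did not differ beyond their spread. Snhg6, Snhg5 and Snhg1 followed in naive cells at 37.5 ± 10.7, 33.0 ± 7.95 and 32.9 ± 8.73 RPKM, which again lay within each other's spread. Snhg14, spread over the longest gene model, had the lowest level per kilobase of the tested hosts in every type, from 0.04 RPKM in Treg to 0.17 RPKM in naive cells.

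**Figure D3:**
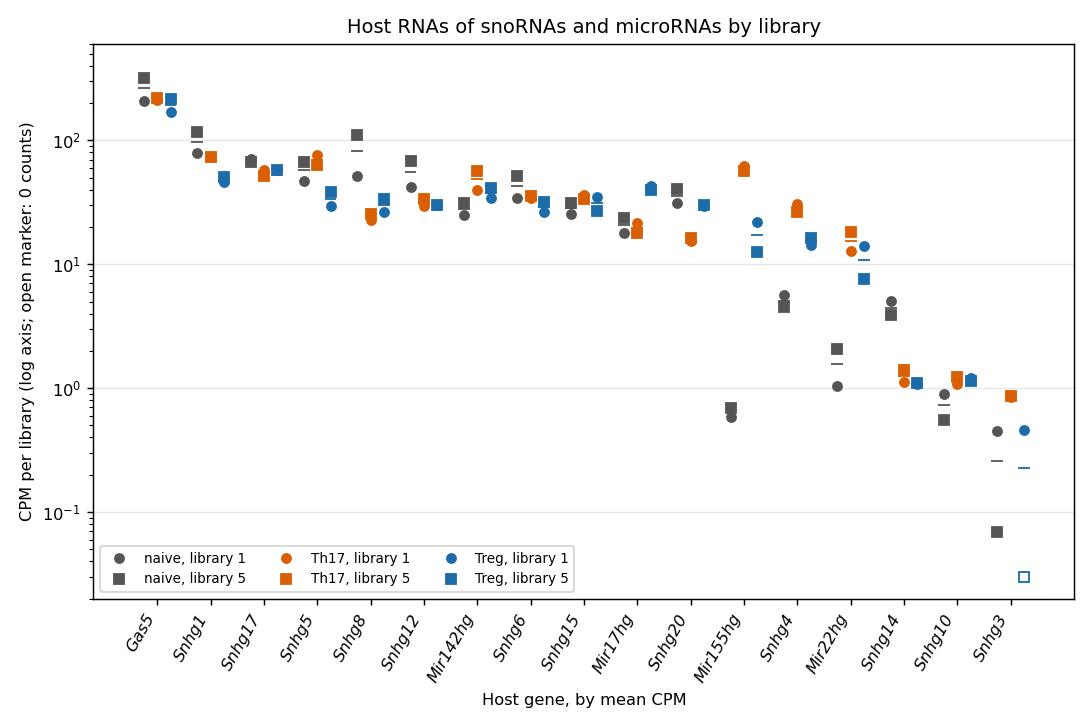
CPM of the 17 tested hosts in each library on a log axis, naive in grey, Th17 in orange and Treg in blue, with circles for library 1, squares for library 5, a short line at the mean of a type and an open marker for 0 counts. Hosts are sorted by mean CPM, which is not scaled by gene length; Mir155hg shows the widest separation, with 0.58 and 0.69 CPM in naive and 62.7 and 56.6 CPM in Th17 libraries.

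Mir155hg (chromosome 16, 84703167 to 84715245, plus strand, mm10), the primary transcript of miR-155, stood at 0.58 and 0.69 CPM in naive, 62.7 and 56.6 CPM in Th17 and 21.8 and 12.7 CPM in Treg libraries. No library of a type overlapped with another type, and the naive values rest on 9 and 10 counts. In Th17 cells it was 92.9-fold above naive cells (log2 fold change 6.54 ± 0.34 (SE), adjusted p = 1.14e-09, edgeR's quasi-likelihood test with Benjamini-Hochberg adjustment, as for every adjusted p below). In Treg cells it was 26.8-fold above naive cells (log2 fold change 4.75 ± 0.35, adjusted p = 6.86e-08) and lower in Treg than in Th17 cells (log2 fold change -1.79 ± 0.24, adjusted p = 3.25e-05). The sequence of its 5p arm is the miR-155-5p shown above, encoded near the end of the host.

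Mir22hg (chromosome 11, 75461539 to 75466676), the host of miR-22, stood at 1.03 and 2.07 CPM in naive, 12.9 and 18.2 CPM in Th17 and 14.1 and 7.59 CPM in Treg libraries. Both Th17 and both Treg libraries lay above both naive ones, whereas Th17 and Treg overlapped. It rose in Th17 against naive cells (log2 fold change 3.32 ± 0.40, adjusted p = 6.27e-06) and in Treg against naive cells (2.80 ± 0.40, adjusted p = 5.69e-05, or 3.39 without naive library 5, adjusted p = 0.000592), and the difference of Treg from Th17 did not pass (-0.52 ± 0.33, adjusted p = 0.241). Mir22hg overlaps Tlcd2 on the same strand, a gene at 0.30, 6.17 and 0.81 CPM on average in naive, Th17 and Treg libraries, so reads of the shared stretch are uncertain between them.

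Mir17hg (chromosome 14, 115042879 to 115046727), which carries the 6 hairpins of the miR-17 to miR-92a cluster, was highest in Treg cells. It stood at 18.03 and 23.7 CPM in naive, 21.6 and 17.7 CPM in Th17 and 42.6 and 40.0 CPM in Treg libraries. Both Treg libraries lay above all 4 others, and naive and Th17 libraries overlapped. Mir17hg was higher in Treg than in naive cells (log2 fold change 0.98 ± 0.20, adjusted p = 0.00124) and than in Th17 cells (1.07 ± 0.20, adjusted p = 0.000699). Th17 against naive gave -0.09 ± 0.20 (adjusted p = 0.739), a value that turned to 0.16 when libraries were scaled by total counts alone.

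Mir142hg (chromosome 11, 87755577 to 87757270), the host of miR-142, stood at 24.8 and 31.4 CPM in naive, 39.7 and 57.1 CPM in Th17 and 34.1 and 41.1 CPM in Treg libraries. Both naive libraries were lowest, and Th17 and Treg libraries overlapped. It rose in Th17 against naive cells (log2 fold change 0.78 ± 0.21, adjusted p = 0.0054). That call was lost without naive library 1 (adjusted p = 0.0571) or without Th17 library 5 (0.0982). Treg against naive gave 0.42 ± 0.21 (adjusted p = 0.123), and 0.61 (adjusted p = 0.0262) with total counts alone. The table also lists Mir142b on the opposite strand over the same hairpin, with 55 to 111 counts per library, and Mir142 on the host's strand with 0 counts. No source used here says whether counting used strand, so the reads of these overlapping genes cannot be assigned to a strand.

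Among snoRNA hosts, Snhg8 and Snhg12 were lower in both Th17 and Treg than in naive cells. Snhg8 (chromosome 3, 123507552 to 123508404, minus strand), the host of the pseudouridylation guide Snora24, stood at 51.8 and 111.5 CPM in naive, 22.8 and 25.5 CPM in Th17 and 26.6 and 33.6 CPM in Treg libraries. All Th17 and Treg libraries lay below both naive libraries, although those differed 2.15-fold. Snhg8 fell by 1.76 ± 0.28 on the log2 scale in Th17 (adjusted p = 8.58e-05) and by 1.44 ± 0.27 in Treg cells (adjusted p = 0.000707), and both calls were kept in all 13 alternative settings. Without naive library 5 the differences were smaller, at -1.09 (adjusted p = 0.0013) and -0.77 (adjusted p = 0.0153).

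Snhg12 (chromosome 4, 132308623 to 132311024), which carries Snora16a, Snora44, Snora61 and Snord99, stood at 42.3 and 68.7 CPM in naive, 29.6 and 33.7 CPM in Th17 and 30.2 and 30.3 CPM in Treg libraries. Naive library 1 lay closer to the other types than to naive library 5. Snhg12 fell by 0.81 ± 0.21 in Th17 (adjusted p = 0.00483) and by 0.88 ± 0.21 in Treg cells (adjusted p = 0.00428). Without naive library 5 neither passed, with log2 fold changes of -0.41 (adjusted p = 0.0949) and -0.47 (adjusted p = 0.0794).

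Snhg14 (chromosome 7, 59307924 to 59975759, minus strand), which in mouse neurons runs antisense into the imprinted gene Ube3a, stood at 5.04 and 3.87 CPM in naive, 1.12 and 1.40 CPM in Th17 and 1.09 and 1.09 CPM in Treg libraries. Those values rest on 78 and 56 counts in naive and 19 to 26 counts in the other libraries. Naive libraries lay apart from both other types. Snhg14 fell by 1.82 ± 0.44 in Th17 (adjusted p = 0.00251) and by 2.03 ± 0.44 in Treg cells (adjusted p = 0.002). Ube3a, on the opposite strand and overlapping its end, had 1442 to 2165 counts per library, and Gm44829, on the opposite strand inside Snhg14, had 50 and 35 counts in naive, 10 and 14 in Th17 and 23 and 16 in Treg libraries. Gm44829 fell by 2.12 ± 0.53 in Th17 (adjusted p = 0.00318) and by 1.37 ± 0.50 in Treg cells (adjusted p = 0.0393), whereas Ube3a did not pass in either. Without strand, reads of Snhg14 and of these genes in their overlaps cannot be told apart.

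Snhg1, Snhg5 and Snhg6 were lower in Treg than in naive cells. Snhg1 (chromosome 19, 8723475 to 8726443), a host of 8 snoRNAs, stood at 79.4 and 116.1 CPM in naive, 74.1 and 73.6 CPM in Th17 and 45.8 and 50.4 CPM in Treg libraries. The 3 types did not overlap, in the order naive, Th17, Treg from high to low. Snhg1 fell by 1.02 ± 0.18 in Treg against naive (adjusted p = 0.000411; -0.71 without naive library 5, adjusted p = 0.00633) and by 0.62 ± 0.18 in Treg against Th17 cells (adjusted p = 0.0145). The latter call was lost without Th17 library 1, Th17 library 5 or Treg library 1 (adjusted p = 0.0613, 0.0545 and 0.129). Th17 against naive gave -0.40 ± 0.18 (adjusted p = 0.0676), and -0.66 (adjusted p = 0.005) without naive library 1.

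Snhg5 (chromosome 9, 88521050 to 88522929, minus strand), the host of the near-identical Snord50a and Snord50b, stood at 47.4 and 66.9 CPM in naive, 76.2 and 62.9 CPM in Th17 and 29.5 and 38.2 CPM in Treg libraries. Treg libraries were lowest, and naive and Th17 libraries overlapped. Snhg5 fell by 1.04 ± 0.20 in Treg against Th17 cells (adjusted p = 0.000857), a call kept in all 13 settings. It fell by 0.75 ± 0.20 in Treg against naive cells (adjusted p = 0.00731), a call that was lost at -0.47 (adjusted p = 0.103) when naive library 5 was left out and at -0.57 (adjusted p = 0.11) when Treg library 1 was. Th17 against naive gave 0.28 ± 0.20 (adjusted p = 0.235), which passed with total counts alone (0.53, adjusted p = 0.0268) and without naive library 5 (0.56, adjusted p = 0.0497).

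Snhg6 (chromosome 1, 9941959 to 9944118, minus strand), the host of Snord87, stood at 34.4 and 51.7 CPM in naive, 34.2 and 35.8 CPM in Th17 and 26.3 and 31.7 CPM in Treg libraries. Treg libraries lay below all others by a small margin. It fell by 0.57 ± 0.21 in Treg against naive cells (adjusted p = 0.0388), the weakest of the members' calls. The call was lost without naive library 5 (-0.24, adjusted p = 0.398). It was also lost with total counts alone and without Treg library 1 or Treg library 5 (adjusted p = 0.143, 0.257 and 0.0607). In the authors' deposited table the same comparison had a log2 fold change of -0.55 and an adjusted p of 0.0891. Mcmdc2 overlaps Snhg6 on the opposite strand with 53 counts in all.

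Snhg20 (chromosome 11, 117076008 to 117078955), the host of a small Cajal body RNA, was low in Th17 cells. It stood at 31.1 and 40.7 CPM in naive, 15.3 and 16.3 CPM in Th17 and 29.4 and 30.1 CPM in Treg libraries. Both Th17 libraries lay at about the same level, below all 4 others. Snhg20 fell by 1.18 ± 0.20 in Th17 against naive cells (adjusted p = 0.000138) and was higher in Treg than in Th17 cells by 0.91 ± 0.20 (adjusted p = 0.002). Treg against naive gave -0.27 ± 0.19 (adjusted p = 0.274).

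Snhg4 (chromosome 18, 35553371 to 35558316), the host of Snora74a, was the only tested snoRNA host called higher against naive cells. It stood at 5.62 and 4.50 CPM in naive, 30.7 and 26.4 CPM in Th17 and 14.3 and 16.3 CPM in Treg libraries. The 3 types did not overlap, with naive lowest and Th17 highest, the same order as Mir155hg. Snhg4 rose by a log2 fold change of 2.49 ± 0.24 in Th17 (adjusted p = 5.47e-07) and 1.59 ± 0.23 in Treg against naive cells (adjusted p = 7.61e-05). It fell by 0.90 ± 0.22 in Treg against Th17 cells (adjusted p = 0.00406), a call lost without Treg library 1 (adjusted p = 0.0525). Gm28285, which overlaps it on the same strand, had 1 to 18 counts per library.

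The remaining 5 tested hosts, Gas5, Snhg17, Snhg15, Snhg10 and Snhg3, passed no comparison. Gas5 (chromosome 1, 161034422 to 161038539), whose RNA builds up in growth-arrested cells and binds the glucocorticoid receptor in human cell lines, stood at 207 and 318 CPM in naive, 211 and 219.7 CPM in Th17 and 169 and 215 CPM in Treg libraries. Naive library 5 was the highest of the 6 and the others overlapped. Against naive cells Gas5 gave -0.29 ± 0.20 in Th17 (adjusted p = 0.241) and -0.45 ± 0.20 in Treg (adjusted p = 0.085). Without naive library 1, so against library 5 alone, both passed (-0.56, adjusted p = 0.021, and -0.72, adjusted p = 0.00828). Without naive library 5 they were 0.06 and -0.10 (adjusted p = 0.798 and 0.709). Zbtb37 overlaps its start on the opposite strand and fell in Th17 and Treg against naive cells (-1.60 ± 0.23, adjusted p = 3.81e-05, and -0.95 ± 0.23, adjusted p = 0.00354). The part of its reads in Gas5 was not tested.

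Snhg17 stood at 70.8 and 66.7 CPM in naive, 57.6 and 52.0 CPM in Th17 and 57.2 and 58.1 CPM in Treg libraries, with both naive libraries above the others by less than the test required (adjusted p = 0.0801 and 0.197 against naive cells). Snhg15 lay between 25.5 and 36.0 CPM in all libraries, and its difference in Th17 against naive cells of 0.30 ± 0.20 (adjusted p = 0.209) passed with total counts alone (0.54, adjusted p = 0.028). Snhg10 had 8 to 23 counts per library and Snhg3, which passed the filter through its Th17 libraries, 7 and 1 counts in naive, 16 and 16 in Th17 and 8 and 0 in Treg libraries. Snhg3 in Treg against Th17 cells gave -1.90 ± 0.97 (adjusted p = 0.139), and passed with limma-voom (adjusted p = 0.0413) and without Treg library 1 (adjusted p = 0.0322), where the remaining Treg library had 0 counts. It overlaps Rcc1 on the same strand, at 29.7, 103 and 51.8 CPM on average in naive, Th17 and Treg libraries, so its few counts are uncertain.

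The other 9 hosts had too few counts to be tested. Mir133a-1hg had 15 counts over all 6 libraries, Snhg11 11, Mir99ahg 8, Mir670hg 8, Mir124a-1hg 4 and Snhg9 3. Snhg9 lies within the span of Rps2 and Mir133a-1hg within that of Mib1, on the opposite strand. Rps2 had 217767 and Mib1 11864 counts in all, so the low counts of these hosts are uncertain without strand. Mir9-3hg, Mir124-2hg and Snhg18 had 0 counts in every library, which in each allows up to 3 counts, or 0.161 to 0.207 CPM. Hosts of microRNAs known from brain and muscle (miR-124, miR-9 and miR-133a in mice) thus had 0 to 7 counts in every library.

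Counted by comparison, 8 of the 17 tested hosts (47.1%) were called in Th17 against naive cells, 4 higher and 4 lower, where 57.7% of all genes tested were called, 29.3% higher and 28.4% lower. In Treg against naive cells 10 of 17 (58.8%) were called, 4 higher and 6 lower, beside 43.4% of all genes, 23.6% higher and 19.9% lower. In Treg against Th17 cells 6 of 17 (35.3%) were called, 2 higher and 4 lower, beside 38.4% of all genes, with 2957 genes higher and 3017 lower. Because a host can pass the filter through the type where it is high, these counts describe the 17 and support nothing further. Median log2 fold changes of the 17 were -0.09, -0.25 and -0.21 in the same order, beside -0.03, -0.005 and 0.02 over all genes. The 13 snoRNA hosts had 1 higher and 4 lower in Th17, 1 higher and 6 lower in Treg against naive cells, and 1 higher and 3 lower in Treg against Th17 cells. The 4 microRNA hosts had 3 higher and 0 lower against naive cells in both types, and 1 in each direction in Treg against Th17 cells. Mir155hg and Snhg4 were called in all 3 comparisons. The comparisons share libraries, so calls in several of them are not independent.

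Without naive library 5 the median log2 fold change of the tested hosts in Treg against naive cells was -0.10, beside 0.02 over all genes. In Th17 against naive cells the hosts' median was 0.13 without naive library 5, beside -0.003 over all genes. Without naive library 1 it was -0.27, beside 0.04 over all genes. Scaling by total counts alone moved the median of all genes from -0.03 to 0.21 in Th17 and from -0.005 to 0.17 in Treg against naive cells, and with it the share of higher calls over all genes from 50.8% to 62.6% and from 54.3% to 67.0%. The hosts then split 6 higher to 4 lower and 5 higher to 5 lower.

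**Figure D4:**
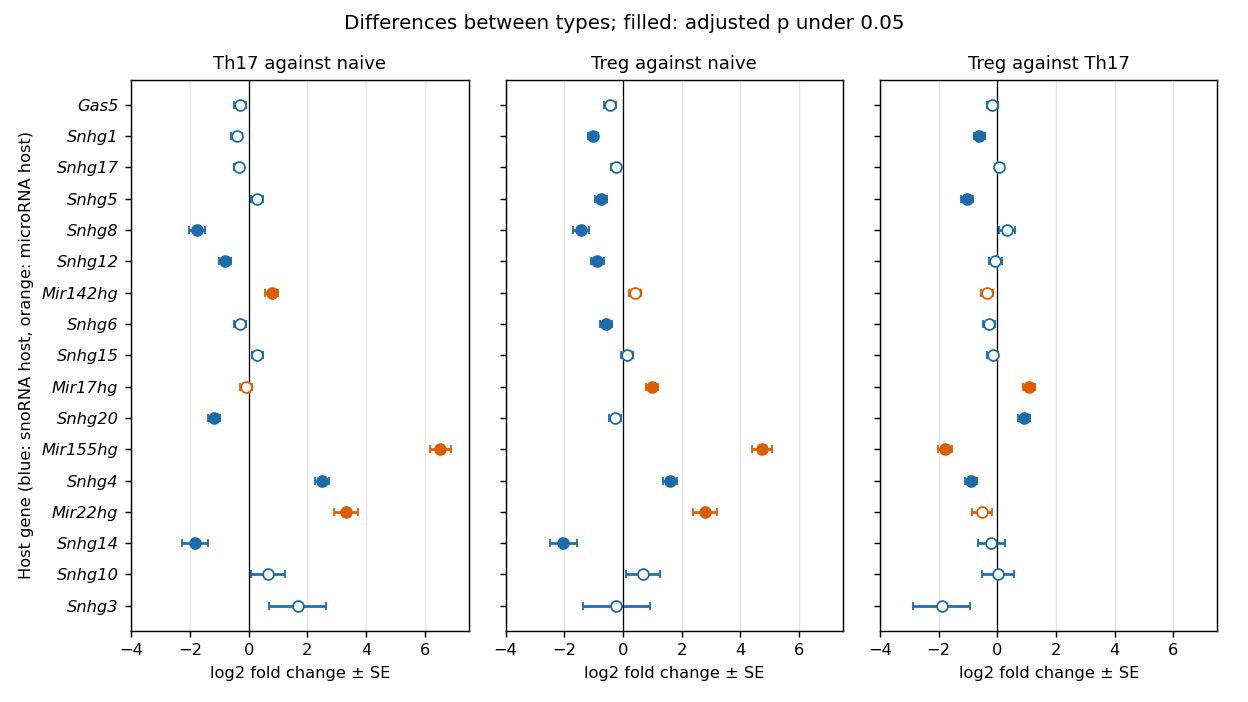
Log2 fold change with its standard error for each tested host in Th17 against naive, Treg against naive and Treg against Th17 cells, snoRNA hosts in blue and microRNA hosts in orange, filled where the adjusted p was under 0.05. Mir155hg lies farthest to the right in both comparisons with naive cells (6.54 and 4.75), and Snhg8 and Snhg14 lie left of 0 in both.

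Genes outside the name rule that also contain snoRNAs on their strand, most of them coding and many of them ribosomal protein genes, were set beside the hosts. Of 77 in the table, 72 were tested. Zfas1, Dancr, Nop56 and Nop58 belong also to a list of non-coding hosts or snoRNA-binding proteins, and Rcc1 and Gm28285 overlap Snhg3 and Snhg4. In Th17 against naive cells 21 were higher and 32 lower, beside 29.3% and 28.4% of all genes tested (median log2 fold change -0.20, beside -0.03), with Zbed3 at 3.70 ± 0.32 and Tpt1, an abundant growth-related protein gene, at -2.37 ± 0.28. In Treg against naive cells 10 were higher and 21 lower, beside 23.6% and 19.9% of all genes (median -0.21, beside -0.005), led by Gm15832 (1.66 ± 0.28), Zbed3 (1.65 ± 0.33) and Rpl12 (-1.43 ± 0.23). In Treg against Th17 cells 24 were higher and 9 lower, where 38.4% of all genes were called in either direction (median 0.16, beside 0.02), with Zbed3 at -2.05 ± 0.28 and Ckap5 at -1.55 ± 0.17. Of 70 with enough counts, 51 were higher in naive library 5 than in naive library 1 (median log2 ratio 0.29), beside 47.8% of all genes. In Treg cells 55 of 72 were higher in library 5 (median 0.14), beside 51.2% of all genes. In Th17 cells 38 of 72 were (median 0.008), beside 51.7%. The tilt was thus also seen in Treg cells.

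Non-coding hosts outside the name rule were few, 5 tested of 8 in the table. Zfas1, a host of box C/D snoRNAs, was higher in Th17 and Treg than in naive cells (0.73 ± 0.23 and 0.68 ± 0.23), and Dleu2, the host of miR-15a and miR-16, was higher in Th17 (0.77 ± 0.20) and lower in Treg cells (-0.54 ± 0.20). H19, the host of miR-675, was higher in Treg than in naive cells (7.14 ± 0.90), with 0 and 6 counts in naive and 365 and 696 counts in Treg libraries, and than in Th17 cells (4.45 ± 0.68), where Dleu2 was lower (-1.31 ± 0.20). Th17 against naive cells thus had 2 higher and 0 lower (median 0.74), beside 57.7% of all genes called (median -0.03). Treg against naive cells had 2 and 1 (median 0.50), beside 43.4% (median -0.005). Treg against Th17 cells had 1 and 1 (median 0.09), beside 38.4% (median 0.02).

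Genes for the proteins that bind and assemble snoRNAs, for microRNA processing and for nonsense-mediated decay are read beside the shares of all genes called, 57.7% in Th17 against naive, 43.4% in Treg against naive and 38.4% in Treg against Th17 cells, and the medians of all genes, -0.03, -0.005 and 0.02. Of 18 snoRNA-binding and assembly genes tested, 3 were higher and 1 lower in Th17 against naive cells (median 0.24), 1 and 1 in Treg against naive cells (median 0.03) and 3 and 1 in Treg against Th17 cells (median -0.16). Naf1, an assembly factor of H/ACA particles, rose in Th17 (2.07 ± 0.24) and Treg cells (2.75 ± 0.24) against naive cells. Nop10, a core protein of the same particles, fell in both (-1.76 ± 0.20 and -0.61 ± 0.19) and was higher in Treg than in Th17 cells (1.15 ± 0.20). Nolc1, a nucleolar chaperone, rose in Th17 cells (0.66 ± 0.16), and Pih1d1 and Naf1 were higher in Treg than in Th17 cells (0.71 ± 0.19 and 0.68 ± 0.22).

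Of 15 tested genes for microRNA processing and effector proteins, 6 were higher and 4 lower in Th17 against naive cells (median 0.14), 3 and 2 in Treg against naive cells (median 0.01) and 3 and 3 in Treg against Th17 cells (median -0.30). In Th17 against naive cells the largest were Ago4 (2.90 ± 0.88, on 5 and 0 counts in naive and 28 and 20 in Th17 libraries), Prkra, a Dicer partner (1.30 ± 0.33), and Ran, which serves export of hairpins (1.22 ± 0.20). Ago1, an Argonaute that holds microRNAs, was higher in Treg than in naive and Th17 cells (1.11 ± 0.16 in each). Ago3 and Tnrc6a were lower in Treg than in naive cells (-0.84 ± 0.16 and -0.58 ± 0.19), and in Treg against Th17 cells Ago4 was lower (-2.89 ± 0.85) and Tnrc6c, a silencing partner of Argonaute, higher (0.89 ± 0.18).

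Of 10 nonsense-mediated decay genes, 3 were higher and 4 lower in Th17 against naive cells (median -0.29), 2 and 2 in Treg against naive cells (median -0.09) and 1 and 1 in Treg against Th17 cells (median 0.13). The kinase gene Smg1 and its partner Smg9 were lower in Th17 (-0.89 ± 0.19 and -0.86 ± 0.16) and Treg cells (-0.83 ± 0.19 and -0.63 ± 0.16) than in naive cells, and Smg8 was higher in Th17 cells (0.69 ± 0.17). Smg6, the endonuclease of the pathway, was higher in Treg than in naive (0.65 ± 0.17) and Th17 cells (0.95 ± 0.17), and Upf3b was lower in Treg than in Th17 cells (-0.61 ± 0.16). Every log2 fold change given for a gene of these lists passed at an adjusted p under 0.05 over all genes tested.

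**Figure D5:**
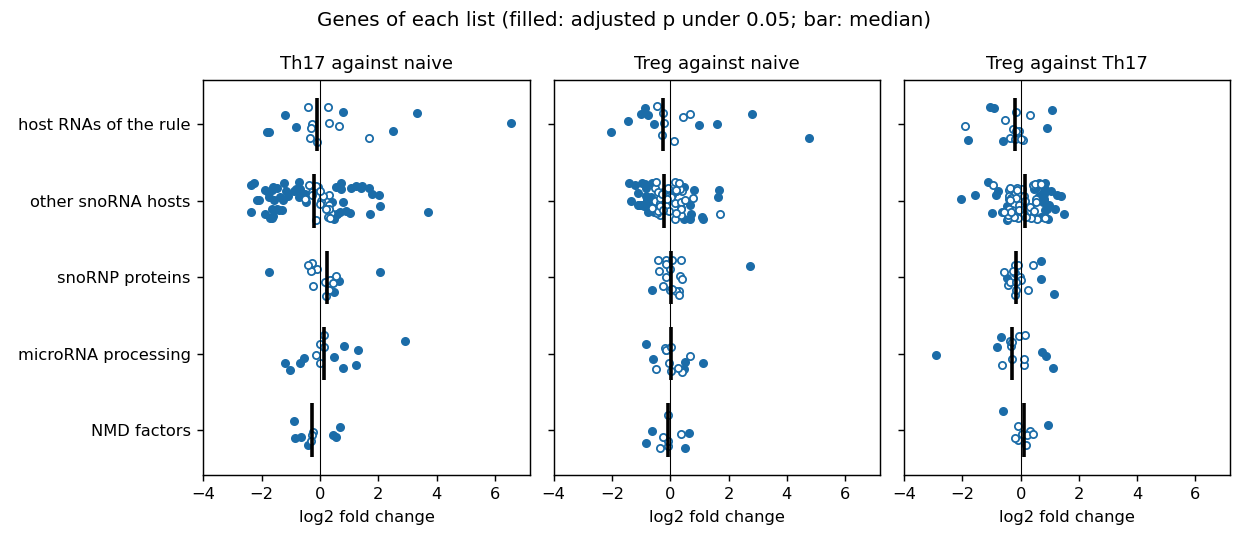
Log2 fold change of every tested gene of the host RNAs and of 4 other lists in each comparison, filled where the adjusted p was under 0.05, with a black bar at the median of the list; vertical scatter within a list only separates points. Medians of the host RNAs (-0.09, -0.25 and -0.21) lie near 0 while single hosts range up to 6.54.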

How the data were processed

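Total RNA was taken up in a column kit for small inputs and turned into SMARTER mRNA libraries, per the labels' protocols. The submitters' processing notes list STAR, cutadapt and DESeq2 and the build mm10, with no versions. No source used here gives the counting tool, its use of strand or the annotation release. The authors deposited raw whole-number counts for each gene and library, and, per the file headers, gene lengths and the log2 fold changes and p-values of their own comparisons with naive cells. The 6 further columns of per-library values, the authors' FPKM, were not used.

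Columns carry a type and the numbers 1 and 5, titles 1 and 2, so columns were matched to types. Counts were tested with edgeR 4.0.16 in R 4.3.3 after TMM scaling and a filterByExpr minimum count of 10. The test was a quasi-likelihood F-test on a mean per type over 6 libraries. It left 3 residual degrees of freedom per gene, before the spread was moderated across the genes tested. Called means a Benjamini-Hochberg adjusted p under 0.05 over 15543 genes. The SE was taken as the size of the log2 fold change over the square root of F. Alternatives used DESeq2 1.42.0, limma 3.58.1, other scalings and filters, and each library left out. The model was tested on simulated data. Floors of 3 counts cover counting error only. The spread within a type exceeded sampling noise (chi-square 16.5 to 37.0 per degree of freedom). Log CPM of libraries of a type correlated at r = 0.978 to 0.984 across genes, those of different types at 0.781 to 0.880. All genes of the name rule are accounted for. From each of 5 gene lists up to 3 called genes with the largest change per comparison are named, and 9 marker lists are summed. A gene that this rule names is not reported here. The coordinates of 25 of 26 hosts equal those of GENCODE release 21. Members and lists were chosen with earlier results of these data known. Overlapping genes, and Epcam and Foxn1 among the markers, were named after their values were seen.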

Additional observations from a re-analysis of the deposited data

How the results depend on the processing

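Of the 13 alternatives, 7 kept all libraries in their groups, and counts of called hosts then stayed within 1.5 times the reported ones. In Th17 against naive cells 8 to 10 hosts were called (8 reported) and in Treg against naive cells 10 to 11 (10). In Treg against Th17 cells 6 to 7 were called (6). Over all genes 32.9% to 58.7%, 24.8% to 44.9% and 22.0% to 44.1% were called, lowest each time without the filter on low counts. Leaving out a library gave host medians of -0.27 to 0.13, -0.25 to -0.10 and -0.30 to -0.13 in the same order. Medians of all genes were then -0.06 to 0.04, -0.02 to 0.04 and -0.002 to 0.04. With the replicate block, the column number as a model term, the counts were 8, 11 and 6, and Gas5 passed in Treg against naive cells (-0.44, adjusted p = 0.0401). The deviations of same-numbered libraries correlated at 0, 0.108 and 0.026, so the numbers were not taken to pair the samples. Of 24 calls, 17 were kept in every alternative and 7 were lost in at least 1: Snhg12 in both comparisons with naive cells, Mir142hg in Th17 against naive, Snhg5 and Snhg6 in Treg against naive, and Snhg1 and Snhg4 in Treg against Th17 cells, with values beside each gene in the report; the cause was not tested. Snhg6 in Th17 against naive cells passed without naive library 1 (-0.57, adjusted p = 0.0322). Of 51 log2 fold changes, 662 recomputed values were obtained, and 1 was not because Snhg3 was filtered out with only the libraries compared. The authors' deposited table gave the same call for 17 of 17 tested hosts in Th17 against naive and 16 of 17 in Treg against naive cells, where Snhg6 differed. The planned level per kilobase from the authors' FPKM was not run, because those columns were not used. Depth limits Snhg3, Snhg10 and the 9 untested hosts, overlapping genes also leave Snhg9 and Mir133a-1hg uncertain, and 2 libraries per type limit every test.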
